A study of Mus musculus with 4 samples.

Results

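The genes of DNA replication and nucleotide supply were examined in CD11b+ spleen cells, comparing mice under repeated social threat with controls. The group was chosen by function, with earlier results of these data known, as a list of 49 gene symbols. Each gene was read by the probe set that named it alone and had the highest mean over the arrays. By this rule 48 of the 49 genes had a value, out of 18193 genes on the array, and Chaf1a was not analysed here. CD11b, the product of Itgam, is an integrin chain on the surface of myeloid cells such as neutrophils and monocytes. RNA of 5 mice was pooled for each of 4 Affymetrix MOE430 2.0 arrays, 2 for social threat and 2 for control. The labels call the environments LowThreat and HighThreat and give no strain, age, sex or day of processing. The pools measure the spread between groups of mice, not between single animals, so each p-value speaks of that spread. If arrays were processed group by group, that order and social threat cannot be told apart.

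A cell copies its genome once in each division. Origins of replication are bound by the origin recognition complex and loaded with the MCM helicase by CDC6 and CDT1. CDC45 and GINS then switch the helicase on, and polymerases, the sliding clamp PCNA and its loader copy the strands. The building blocks come from ribonucleotide reductase, thymidylate synthase, thymidine kinase and dUTPase, and methylation and nucleosomes are restored behind the fork by DNMT1, UHRF1 and CAF-1. Mature neutrophils and most macrophages of blood and spleen do not divide, whereas precursors of neutrophils and red cells do. E2F transcription factors switch on many of these genes late in G1, and short E2F sites near the start of the gene are the textbook element through which they act.

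The genes rose as a group of many members and none fell. Of the 48 measured, 36 rose under social threat (75.0%), where 9.4% of all 18193 genes did, and 0 fell by limma, where 11.7% of all genes did. At an unadjusted p under 0.05, 1 of the members (Pcna) was lower. The median log2 difference, social threat minus control, was 0.65 (1.57-fold) over the members and -0.02 over all genes. The called differences ran from 0.26 for Rpa1 to 2.49 for Ccne2, and 16 members rose by at least 2-fold (33.3%), where 1.83% of all genes were that much higher. Both social threat pools lay above both control pools for 42 members (87.5%), where the same held for 26.1% of all genes. They lay below for 4 members, Orc2, Cdt1, Pold1 and Pcna, where 32.1% of all genes did so, and the pools of the groups overlapped or tied for Pola2 and Pold2. The 12 members that were not called had log2 differences between -0.18 and 0.44. Rose and fell are used below only of genes with a limma adjusted p under 0.05 over all 45037 probe sets. In whole-cell RNA of sorted cells, more cells of a dividing type and more RNA per cell cannot be told apart. Markers of neutrophil precursors and most markers of erythroid cells were higher in the same pools. Most markers of lymphocytes and all measured markers of dendritic cells were lower, with the values given last. The part of these markers in the results was not tested.

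**Figure D1:**
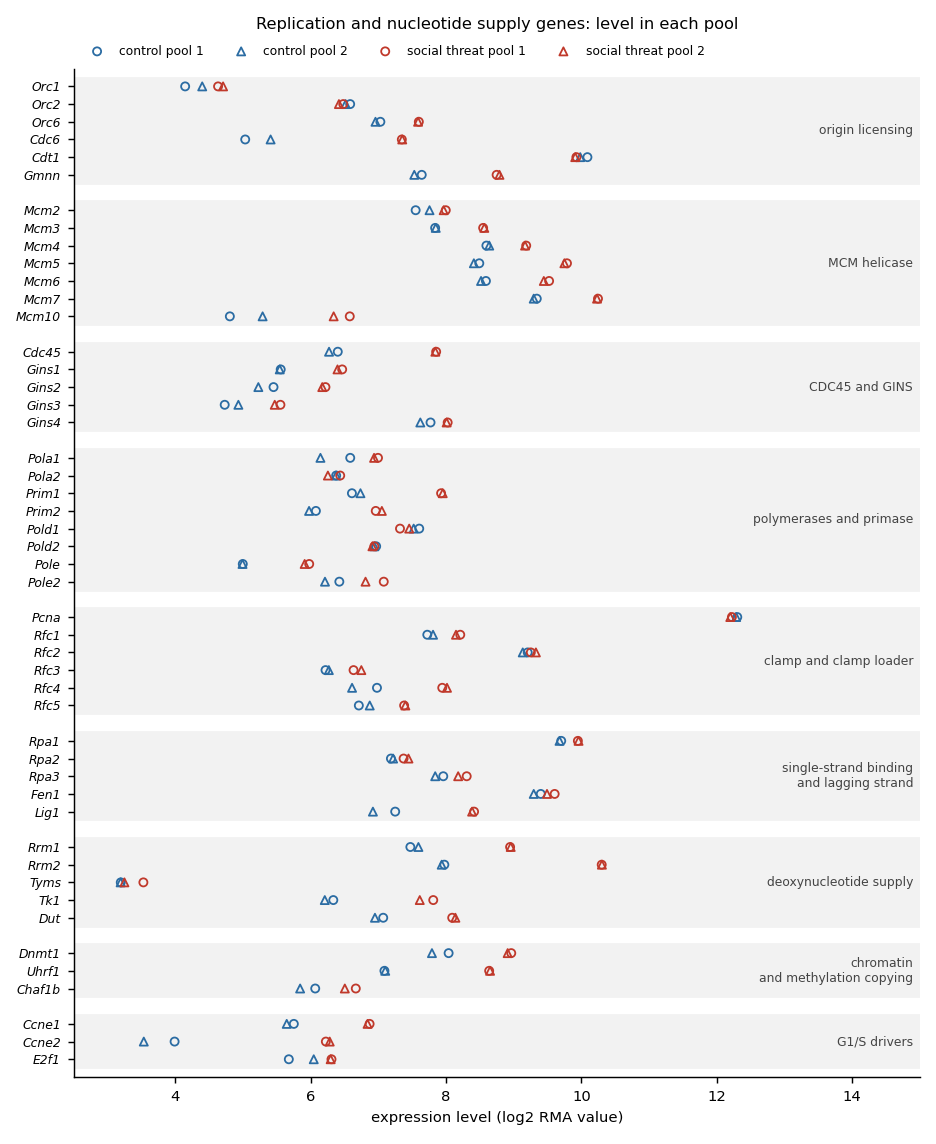
Level of each of the 48 measured genes in each pool, on the log2 scale of the deposited values, with genes grouped by role (circles pool 1, triangles pool 2, blue control, red social threat). The red symbols lie to the right of the blue for 42 genes; Pcna and Cdt1 have nearly coinciding symbols, and Rrm2, Cdc6 and Ccne2 have the widest gaps.

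Genes that move together raise the question of which short elements their promoters hold, so the promoters of 4 members with large rises in different roles are shown, with that of Pcna, which was chosen after its values were seen because it was not called. Each is 300 bases, from 250 before to 50 after a RefSeq transcript start on GRCm38.p6, read 5′ to 3′ on the strand of the gene. Rrm2 lies at chr12:24708004-24708303 (plus strand), Cdc6 at chr11:98907901-98908200 (plus strand), Uhrf1 at chr17:56303087-56303386 (plus strand, the first listed of 2 starts), Cdc45 at chr16:18811923-18812222 (minus strand) and Pcna at chr2:132253131-132253430 (minus strand). Capitals mark, on either strand, matches to 3 motifs. The E2F core was searched as TTCCCGC and as its variants TTCGCGC and, with other inner letters, TTGGCGC and finally TTGCCGC. The other motifs were the CCAAT box, by those letters, and the cell cycle homology region (CHR), searched as TTTGAA.
Rrm2: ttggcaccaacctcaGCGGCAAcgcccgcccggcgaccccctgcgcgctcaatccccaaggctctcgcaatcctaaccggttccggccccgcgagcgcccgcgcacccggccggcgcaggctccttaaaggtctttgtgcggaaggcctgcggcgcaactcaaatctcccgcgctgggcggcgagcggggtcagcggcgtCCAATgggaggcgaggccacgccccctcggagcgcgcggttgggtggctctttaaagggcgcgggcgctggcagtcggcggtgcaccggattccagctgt
Cdc6: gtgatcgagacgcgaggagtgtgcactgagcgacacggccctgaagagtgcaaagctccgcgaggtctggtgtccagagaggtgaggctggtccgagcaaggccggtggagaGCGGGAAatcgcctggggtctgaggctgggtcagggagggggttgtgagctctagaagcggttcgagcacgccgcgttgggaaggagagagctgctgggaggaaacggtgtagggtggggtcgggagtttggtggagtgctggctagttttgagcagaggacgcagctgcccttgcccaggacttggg
Uhrf1: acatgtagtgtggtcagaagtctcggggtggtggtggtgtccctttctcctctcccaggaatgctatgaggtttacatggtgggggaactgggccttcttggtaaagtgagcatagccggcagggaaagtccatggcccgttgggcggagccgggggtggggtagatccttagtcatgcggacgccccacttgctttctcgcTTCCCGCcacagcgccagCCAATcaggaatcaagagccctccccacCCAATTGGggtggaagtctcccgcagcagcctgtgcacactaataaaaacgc
Cdc45: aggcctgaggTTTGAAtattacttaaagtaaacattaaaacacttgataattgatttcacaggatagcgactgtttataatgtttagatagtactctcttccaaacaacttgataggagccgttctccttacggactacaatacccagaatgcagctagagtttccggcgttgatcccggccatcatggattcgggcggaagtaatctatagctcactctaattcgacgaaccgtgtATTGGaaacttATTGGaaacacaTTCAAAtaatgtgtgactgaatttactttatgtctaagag
Pcna: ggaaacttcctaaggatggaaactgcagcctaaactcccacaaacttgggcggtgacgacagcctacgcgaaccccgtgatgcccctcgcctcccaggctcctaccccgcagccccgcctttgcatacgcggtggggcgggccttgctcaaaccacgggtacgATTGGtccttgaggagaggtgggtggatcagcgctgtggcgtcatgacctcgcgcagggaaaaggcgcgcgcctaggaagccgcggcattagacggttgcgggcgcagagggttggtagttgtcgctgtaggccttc
In these windows Rrm2 and Uhrf1 held an E2F core and at least 1 CCAAT box, and Cdc6 held an E2F core alone. Cdc45 held 2 CCAAT boxes and 2 CHR matches, and Pcna a CCAAT box, with none of the E2F letters in either window.

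Promoters were held for 40 of the 49 members, in 49 windows. An E2F core on either strand was present for 25 of those 40 genes (62.5%), against 16.0% of 14452 genes on the array with a promoter and 10.9% of all 27025 genes in the table. A CCAAT box was present for 62.5% of the members and 42.0% of the genes on the array, and the CHR letters for 6 of the 40 members and 15.7% of the genes on the array. In 3 windows an E2F core overlapped a CCAAT box. The median GC content was 60.0% over the members' windows and 58.3% over those of genes on the array. By call, the E2F core was present for 19 of 28 members that rose and for 5 of 11 that were not called, a description over few genes that was not tested. Mcm6 held 5 matches and Pola1 held 4, whereas Tk1, Dut and Ccne1 rose with none in the window.

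The genes of deoxynucleotide supply showed some of the widest gaps. Ribonucleotide reductase, which turns ribonucleotides into deoxyribonucleotides, has a large subunit from Rrm1 and a small one from Rrm2. Rrm2 stood at 7.98 and 7.94 in the control pools and at 10.30 and 10.30 under social threat, a difference of 2.35 (SE 0.06, adjusted p = 3.88e-08), or 5.08-fold. Its other probe sets rose by 2.37 and 2.58. Rrm1 stood at 7.47 and 7.59 in control and at 8.95 and 8.96 under social threat, and rose by 1.42 (SE 0.08, adjusted p = 2.49e-06). By these probe sets no pools overlapped for either subunit. A second Rrm1 probe set rose by 1.43, and the remaining one, below the array medians, had overlapping pools and no call (-0.00). Rrm2b makes the alternative small subunit, used outside S phase and in DNA damage. It stood at 7.49 and 7.40 in control and at 7.33 and 7.09 under social threat and was not called (difference -0.24, 95% interval -0.47 to -0.00, adjusted p = 0.188).

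Tk1, the cytosolic thymidine kinase of S phase, stood at 6.34 and 6.21 in control and at 7.81 and 7.61 under social threat, and rose by 1.44 (SE 0.10, adjusted p = 1.74e-05). Dut, the dUTPase that keeps uracil out of DNA, rose by 1.10 (SE 0.09), from 7.07 and 6.95 to 8.09 and 8.14. Tyms, thymidylate synthase, was not called by the rule used here, with a difference of 0.20 (95% interval -0.06 to 0.45). All 4 probe sets that name Tyms alone had means between 2.99 and 3.29, below the array medians of 4.41 to 4.43, so the gene's own probe sets were dim. A probe set shared by Tyms and its pseudogene Tyms-ps, chosen after its values were seen, stood at 5.69 and 5.48 in control and at 7.32 and 7.45 under social threat. That probe set rose by 1.80 (SE 0.11, adjusted p = 6.45e-06), and it cannot say which of the pair it read.

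The genes that load the helicase gave unequal values. Cdc6, the ATPase that brings MCM to origins, stood at 5.03 and 5.41 in control and at 7.35 and 7.35 under social threat, and rose by 2.13 (SE 0.13, adjusted p = 6.67e-06), or 4.37-fold. Gmnn makes geminin, which binds CDT1 and blocks reloading after S phase has begun. It stood at 7.64 and 7.53 in control and at 8.75 and 8.79 under social threat, and rose by 1.18 (SE 0.08, adjusted p = 8.14e-06). Cdt1, the partner of CDC6 in loading and the target of geminin, was at 10.09 and 9.98 in control and 9.93 and 9.91 under social threat and was not called (difference -0.12, 95% interval -0.24 to 0.00). Its other probe sets differed by -0.00 and 0.12. Without control pool 2, Cdt1 was called lower (-0.17, adjusted p = 0.0351), the one member called lower in any setting tried, and without control pool 1 it was at -0.07 (adjusted p = 0.459).

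Of the 3 origin recognition genes in the group, Orc6 rose by 0.60 (SE 0.09, adjusted p = 0.00123), from 7.03 and 6.96 to 7.60 and 7.59. Orc1, the subunit whose abundance follows the cell cycle, stood at 4.15 and 4.40 in control and at 4.63 and 4.71 under social threat. Its difference of 0.40 was not called (adjusted p = 0.0801), while its second probe set, below the array medians, rose by 0.57 (adjusted p = 0.012). The first gave 0.52 without control pool 2 (adjusted p = 0.0315) and 0.27 without control pool 1 (adjusted p = 0.267). Orc2 was at 6.58 and 6.52 against 6.48 and 6.42 and was not called (95% interval -0.33 to 0.12). The other subunits, Orc3, Orc4 and Orc5, chosen after their values were seen, were not called either, with differences of 0.03, 0.01 and -0.30. Cdc6 and geminin were therefore higher in all social threat pools while most of the recognition complex and CDT1 showed no call.

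All 7 genes of the MCM group rose, with a median of 0.92, where 9.4% of all genes rose. MCM2 to MCM7 form the ring-shaped helicase, a hexamer with 1 copy of each, and MCM10 is a separate factor that helps to start it. Mcm5 stood at 8.49 and 8.41 in control and at 9.79 and 9.75 under social threat and rose by 1.32 (SE 0.06, adjusted p = 1.17e-06). Mcm6 rose by 0.93 (SE 0.06), from 8.59 and 8.52 to 9.52 and 9.44. Mcm7 rose by 0.92 (SE 0.05), from 9.34 and 9.30 to 10.24 and 10.23. Differences between subunits were not tested, and probe sets of the same subunit also differed.

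Mcm3 rose by 0.71 (SE 0.07), from 7.84 and 7.85 to 8.55 and 8.57, with its 5 probe sets between 0.26 and 0.81. Mcm4 rose by 0.56 (SE 0.06), from 8.60 and 8.64 to 9.18 and 9.17, and its second probe set by 0.92. Mcm2 stood at 7.55 and 7.76 in control and at 7.996 and 7.965 under social threat, a rise of 0.33 (SE 0.09, adjusted p = 0.0383). A second probe set of Mcm2 rose by 0.90 (SE 0.09, adjusted p = 0.000123), so the size of this gene's change depended on the probe set. Mcm2 lost its call without control pool 1 (0.22, adjusted p = 0.085), without social threat pool 1 (adjusted p = 0.287) and without social threat pool 2 (adjusted p = 0.238). Mcm10 stood at 4.81 and 5.29 in control and at 6.58 and 6.34 under social threat and rose by 1.41 (SE 0.17, adjusted p = 0.000365). Its control pools had the widest SD of any member, 0.34.

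Genes whose products switch on the helicase rose for 5 of 5, by the probe sets used here, beside 9.4% of all genes. Cdc45 stood at 6.40 and 6.27 in control and at 7.85 and 7.84 under social threat and rose by 1.51 (SE 0.09, adjusted p = 5.94e-06). A second probe set of Cdc45, at a mean of 5.39, showed no call (0.07, adjusted p = 0.785). The 4 subunits of the GINS complex rose by 0.88 (Gins1, SE 0.11), 0.86 (Gins2, SE 0.12), 0.68 (Gins3, SE 0.13) and 0.32 (Gins4, SE 0.08). Gins4 stood at 7.77 and 7.62 in control and at 8.02 and 8.01 under social threat. Its call was lost without control pool 2 (0.25, adjusted p = 0.0517), without social threat pool 1 (adjusted p = 0.253) and without social threat pool 2 (adjusted p = 0.231). Gins3 was not called without social threat pool 1 (adjusted p = 0.0791) or pool 2 (adjusted p = 0.051).

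Among the polymerases, subunits of the same complex gave different values. Prim1 and Prim2 make the primase that lays down RNA primers. Prim1 stood at 6.61 and 6.74 in control and at 7.93 and 7.95 under social threat and rose by 1.27 (SE 0.09, adjusted p = 1.48e-05), and Prim2 rose by 0.98 (SE 0.10), from 6.08 and 5.98 to 6.96 and 7.05. Pola1, the catalytic subunit of the polymerase alpha that extends those primers, rose by 0.60 (SE 0.14, adjusted p = 0.0173), with control pools at 6.59 and 6.15 and social threat pools at 6.995 and 6.94. It was not called without social threat pool 1 (adjusted p = 0.16) or pool 2 (adjusted p = 0.122). Pola2, the accessory subunit of the same enzyme, was at 6.38 and 6.38 against 6.44 and 6.26, with overlapping pools and no call (95% interval -0.27 to 0.21).

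Polymerase epsilon copies the leading strand and polymerase delta the lagging strand. Pole, the catalytic subunit of epsilon, stood at 5.00 and 4.99 in control and at 5.98 and 5.91 under social threat and rose by 0.95 (SE 0.11, adjusted p = 0.000393). Pole2 rose by 0.63 (SE 0.12, adjusted p = 0.00741), and without social threat pool 1 by less, with no call (0.49, adjusted p = 0.138). Pold1, the catalytic subunit of delta, was at 7.60 and 7.52 in control and at 7.32 and 7.46 under social threat. It was not called (difference -0.18, 95% interval -0.38 to 0.03). Its second probe set differed by 0.04, with overlapping pools and no call. Pold2 was at 6.97 and 6.94 against 6.94 and 6.91 and was not called (-0.03, 95% interval -0.23 to 0.18). Of the small subunits, chosen after their values were seen, Pold3, Pold4 and Pole3 were not called and Pole4 fell by 0.27 (adjusted p = 0.0332). The 95% interval of Pole, from 0.69 to 1.21, lay apart from that of Pold1, but the difference between the genes was not tested.

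The sliding clamp and its loader gave unequal values. Pcna, the ring that holds polymerases on DNA and also serves repair, was at 12.30 and 12.29 in control and 12.22 and 12.20 under social threat. Its difference of -0.08 (SE 0.03, adjusted p = 0.0782, 95% interval -0.15 to -0.02) was not called, and the upper end of the interval lay below the smallest called rise of any member, 0.26. Pcna was read by 1 probe set of its own, so no other probe set bears on this value. Of the 5 subunits of replication factor C, which opens the clamp, 4 rose, where 9.4% of all genes did. Rfc4 stood at 6.98 and 6.61 in control and at 7.94 and 8.01 under social threat and rose by 1.18 (SE 0.12, adjusted p = 0.000149).

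Rfc5 rose by 0.60 (SE 0.10), Rfc3 by 0.45 (SE 0.10) and Rfc1 by 0.41 (SE 0.08). Rfc1 and Rfc3 were not called without social threat pool 1 (adjusted p = 0.13 and 0.103) or pool 2 (adjusted p = 0.0792 and 0.224), nor was Rfc5 without pool 2 (adjusted p = 0.0557). Rfc2 was at 9.21 and 9.13 against 9.25 and 9.33 and was not called, with differences of 0.12 to 0.15 over its 3 probe sets. The 95% interval of Rfc2 (-0.02 to 0.26) did not meet that of Rfc4 (0.91 to 1.46), though the difference between these genes was not tested.

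Single-stranded DNA at the fork is coated by replication protein A, and the lagging strand is finished by FEN1 and ligase I. Lig1, the ligase, stood at 7.25 and 6.92 in control and at 8.41 and 8.39 under social threat and rose by 1.31 (SE 0.11, adjusted p = 4.12e-05). Rpa1 rose by 0.26 (SE 0.05), from 9.70 and 9.68 to 9.95 and 9.96, and Rpa3 by 0.34 (SE 0.08), both small and both lost without social threat pool 1 (adjusted p = 0.102 and 0.286) or pool 2 (adjusted p = 0.119 and 0.108). A second Rpa1 probe set was not called (0.22, adjusted p = 0.0895). Rpa2 was at 7.19 and 7.22 against 7.37 and 7.45 and was not called (0.21, adjusted p = 0.163). Fen1 differed by 0.20 (SE 0.06, adjusted p = 0.0713), with no overlap of pools. A second Fen1 probe set rose by 0.49 (SE 0.07, adjusted p = 0.00153), and the first gave 0.25 without control pool 1 (adjusted p = 0.0267) and 0.15 without control pool 2 (adjusted p = 0.147).

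The genes that copy methylation and chromatin rose for 3 of 3 measured, beside 9.4% of all genes. Uhrf1 recognises hemimethylated DNA and brings in DNMT1, which restores methylation on the new strand. Uhrf1 stood at 7.09 and 7.10 in control and at 8.64 and 8.65 under social threat and rose by 1.55 (SE 0.08, adjusted p = 1.48e-06), or 2.92-fold. Dnmt1 stood at 8.04 and 7.79 in control and at 8.96 and 8.91 under social threat and rose by 1.02 (SE 0.09, adjusted p = 5.75e-05), and its 3 probe sets rose by 1.02 to 1.16. Chaf1b, a subunit of the histone chaperone CAF-1, rose by 0.63 (SE 0.12, adjusted p = 0.00593) and was not called without social threat pool 1 (0.55, adjusted p = 0.113).

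The drivers of entry into S phase rose for 2 of 3, where 9.4% of all genes rose. Ccne2, cyclin E2, stood at 3.99 and 3.54 in control and at 6.23 and 6.28 under social threat and rose by 2.49 (SE 0.16, adjusted p = 7.42e-06). Its control pools lay below the array medians, so the 5.62-fold difference rests on a dim control level. Ccne1, cyclin E1, rose by 1.16 (SE 0.10), from 5.75 and 5.65 to 6.87 and 6.84. E2f1, the founding E2F activator, stood at 5.68 and 6.05 in control and at 6.31 and 6.30 under social threat and was not called (0.44, SE 0.13, adjusted p = 0.0576). Its second probe set rose by 0.69 (adjusted p = 0.0214), and the remaining one showed no call (0.35, adjusted p = 0.112). The value turned on the control pools: the first probe set gave 0.62 without control pool 2 (adjusted p = 0.00453) and 0.26 without control pool 1 (adjusted p = 0.166).

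**Figure D2:**
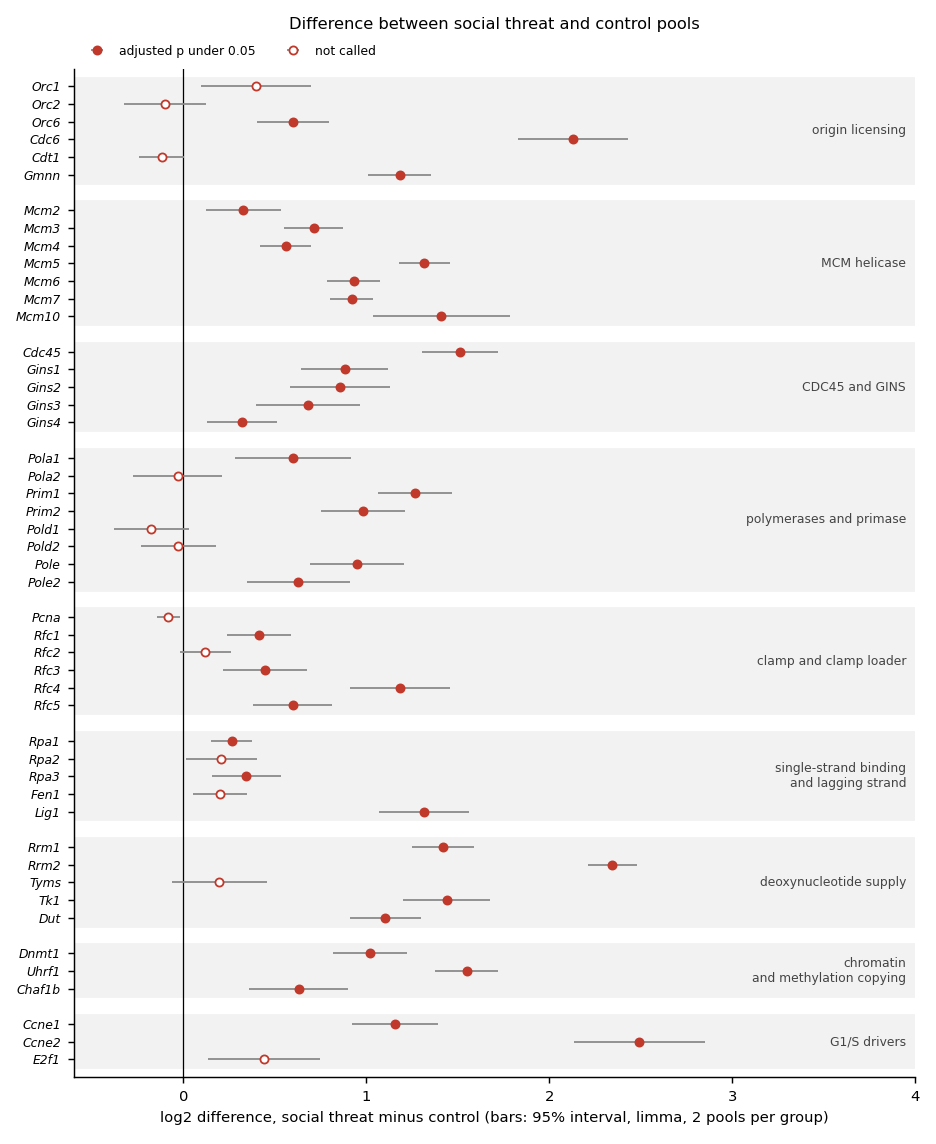
Log2 difference, social threat minus control, of each of the 48 measured genes with its 95% interval from limma (2 pools per group), grouped by role; filled points are called at an adjusted p under 0.05. The 36 filled points all lie to the right of 0, from 0.26 to 2.49, and the 12 open points lie between -0.18 and 0.44.

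Most members were read more than once. Of the 48 genes, 36 had more than 1 probe set of their own, and the members had 104 in all. Of these 65 rose and 0 fell, where 7.09% of all probe sets rose and 8.67% fell. Among the 84 member probe sets at or above the array median, 63 rose, where 12.9% of all such probe sets did. Among the 20 dimmer ones 2 rose, where 1.25% of all such probe sets did. In 23 of the 36 genes every probe set at or above the array median rose. For Mcm10, Gins1, Pola1, Pole2, Dut and Chaf1b among them, only 1 probe set was that bright. It was the one already used above, so it is no repeat. The repeats were close for Rrm2, Ccne1, Dnmt1, Uhrf1 and Gins2. They were wide for Cdc45, Mcm2, Mcm3, Prim2 and Rfc1 among probe sets at or above the array medians. With dimmer ones included, the range was -0.31 to 0.98 for Prim2, where the dimmest was not called and had the opposite sign. It was -0.00 to 1.43 for Rrm1, 0.17 to 1.41 for Mcm10 and 0.19 to 1.30 for Mcm6.

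**Figure D3:**
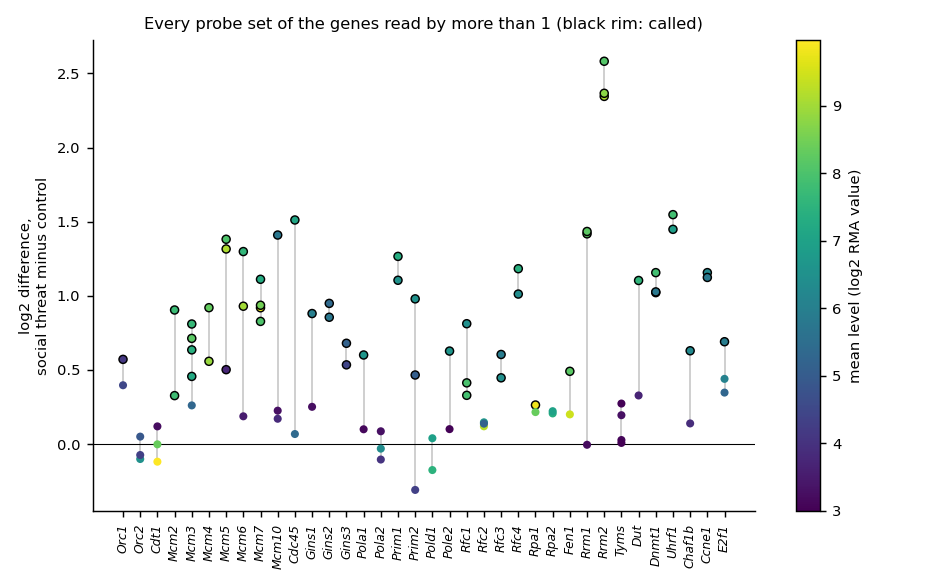
Log2 difference of every probe set of the 36 genes read by more than 1, coloured by its mean level over the 4 pools, with a black rim where it was called. The 3 probe sets of Rrm2 lie between 2.35 and 2.58, and the dim probe sets, drawn dark, of Rrm1, Mcm6 and Dut lie below the bright ones of those genes, at -0.00, 0.19 and 0.33.

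By median SD the social threat pools lay closer to each other than the control pools did, both in these genes and over all genes. The median SD between the pools of a group was 0.0746 over the members in control and 0.0354 under social threat, against 0.0714 and 0.0537 over all genes. All members but 1 lay at or above the array median, so the 2 sets of genes were not matched for level. The widest SD under social threat was 0.20, for Tyms. Of the 36 rises, 25 were called in all 11 alternative fits that gave a value for them. The 11 that were not are Mcm2, Gins3, Gins4, Pola1, Pole2, Rfc1, Rfc3, Rfc5, Rpa1, Rpa3 and Chaf1b. With social threat pool 1 left out the differences of 42 members were above 0, and with pool 2 left out those of 43. Fits without a pool leave a lone pool in its group, and their calls over all probe sets changed too, as given in the last section. A call lost in such a fit is therefore no measure of that gene alone.

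**Figure D4:**
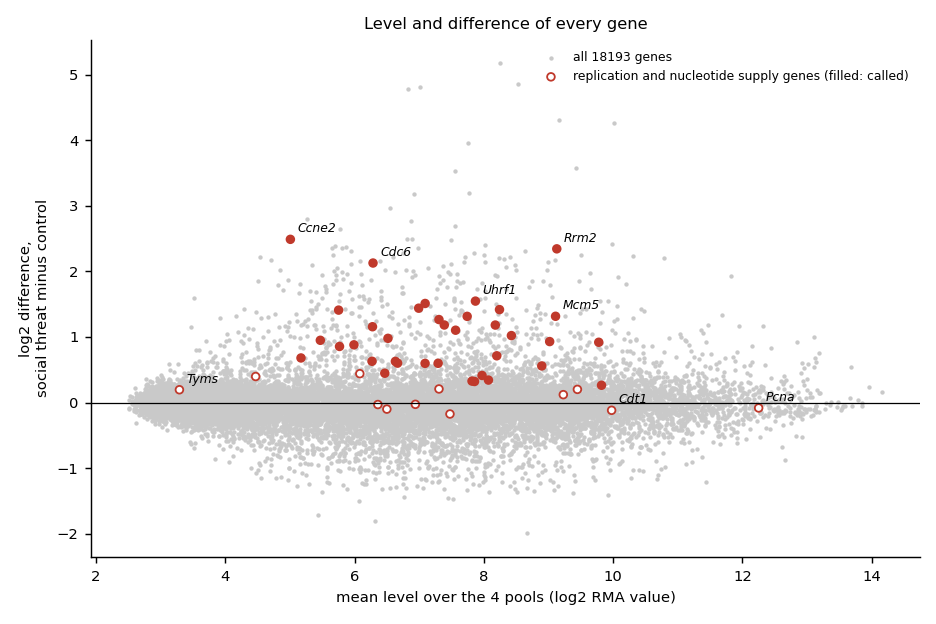
Mean level over the 4 pools against the log2 difference, social threat minus control, for all 18193 genes (grey) and the 48 members (red, filled where called). The members' median is 0.65 and that of all genes -0.02; Rrm2, Ccne2 and Cdc6 lie highest among the members.

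Other genes of the pathway come from lists drawn up by function, with earlier results of these data known. They are set beside the share over all genes, 9.4% higher and 11.7% lower, and differences between lists were not tested. Of 33 other replication factors 18 rose (54.5%) and 1 fell (3.03%), with a median of 0.35. Clspn, claspin, which relays stalled forks to the checkpoint, rose from 5.37 and 4.70 to 6.83 and 6.89 (1.83, SE 0.19, adjusted p = 0.000163). Top2a, the topoisomerase that untangles sister DNA, rose by 1.80 (SE 0.08), Asf1b, a histone chaperone, by 1.54 (SE 0.08), and Cdc7, the kinase that fires origins, by 1.14 (SE 0.11). Atad5, which unloads PCNA, rose by 1.19 (SE 0.15). Without social threat pool 1 the count of rises was 12, and without pool 2 it was 13.

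Of 24 measured genes of de novo nucleotide synthesis, 2 rose (8.33%) and 2 fell (8.33%), shares near those over all genes, with a median of -0.03. Dtymk, thymidylate kinase, which acts on the product of TYMS and TK1, stood at 7.53 and 7.31 in control and at 8.46 and 8.36 under social threat and rose by 0.99 (SE 0.09, adjusted p = 9.7e-05). Adss, adenylosuccinate synthase, rose by 0.19 (adjusted p = 0.0331). Prps2, which makes the activated ribose of nucleotides, fell by 0.50 (adjusted p = 0.000852), and Atic, which ends purine ring synthesis, fell by 0.31 (adjusted p = 0.0234). Gart, which makes early purine intermediates, was not called (-0.27, adjusted p = 0.0914). Cad, which starts pyrimidine synthesis, was not called (-0.09, 95% interval -0.40 to 0.22) and was chosen after its values were seen. Without social threat pool 1 or pool 2 the counts were 1 rise and 1 fall, and without control pool 2 they were 2 and 4.

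Salvage and turnover gave 5 rises (35.7%) and 1 fall (7.14%) among 14 genes, with a median of 0.05. Ada, adenosine deaminase, stood at 7.39 and 7.22 in control and at 9.38 and 9.38 under social threat and rose by 2.08 (SE 0.08, adjusted p = 4.14e-07). Upp1, uridine phosphorylase, rose by 1.85 (SE 0.06), Nt5c3, a pyrimidine nucleotidase, by 0.72 (SE 0.09) and Aprt, which salvages adenine, by 0.68 (SE 0.05). Dguok, the mitochondrial deoxyguanosine kinase, fell by 0.52 (SE 0.08, adjusted p = 0.00141). Tk2, the mitochondrial thymidine kinase, was not called (-0.17, 95% interval -0.34 to 0.00), beside the rise of 1.44 of Tk1. Samhd1, which breaks down deoxynucleotides in cells that do not divide, was at 11.94 and 11.92 against 11.87 and 11.84 and was not called (-0.08). Tk2 and Samhd1 were chosen after their values were seen.

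The regulators of the G1/S step rose for 11 of 21 genes (52.4%) and fell for 2 (9.52%), with a median of 0.60. Ccna2, cyclin A2, stood at 7.18 and 7.41 in control and at 9.55 and 9.47 under social threat and rose by 2.22 (SE 0.09, adjusted p = 4.54e-07). E2f7 and E2f8, the repressor E2Fs that are themselves made in S phase, rose by 2.36 (SE 0.14) and 1.82 (SE 0.09). Cdc25a, a phosphatase that activates CDK2, rose by 1.57 (SE 0.09), and Mybl2, B-MYB, by 1.35 (SE 0.12). Cdkn1a, the CDK inhibitor p21, and Myc, both chosen after their values were seen, fell by 0.64 (SE 0.06, adjusted p = 5.78e-05) and 0.58 (SE 0.08, adjusted p = 0.0011).

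Repair genes that act at forks rose for 6 of 15 measured (40%), with a median of 0.36. By limma 0 fell, and 2 were lower at an unadjusted p under 0.05. Of the 6 that rose, Rad51ap1 had the largest difference, 2.00 (SE 0.12), and Brca1 rose by 1.54 (SE 0.12). Rad54l rose by 1.25 (SE 0.13), the checkpoint kinase Chek1 by 1.24 (SE 0.12) and Fancd2 by 0.85 (SE 0.13). Without control pool 1 the list had 9 rises and 1 fall, and without control pool 2 it had 6 and 1. Of 10 genes of methylation and chromatin assembly outside the members, 2 rose (20%) and 1 fell (10%), with a median of -0.06, and the share that fell was near that over all genes. Hells, a remodeller needed for DNA methylation, rose by 1.60 (SE 0.15), and Nasp, a histone chaperone, by 0.36 (SE 0.08). Dnmt3a, a methyltransferase that sets new marks, fell by 0.61 (SE 0.10, adjusted p = 0.00227), where Dnmt1 rose. Dnmt3b and Tet2 were not called, at -0.27 and -0.25. The counts of that list were 1 and 1 without social threat pool 1, 1 and 0 without pool 2, and 2 and 2 without control pool 2.

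**Figure D5:**
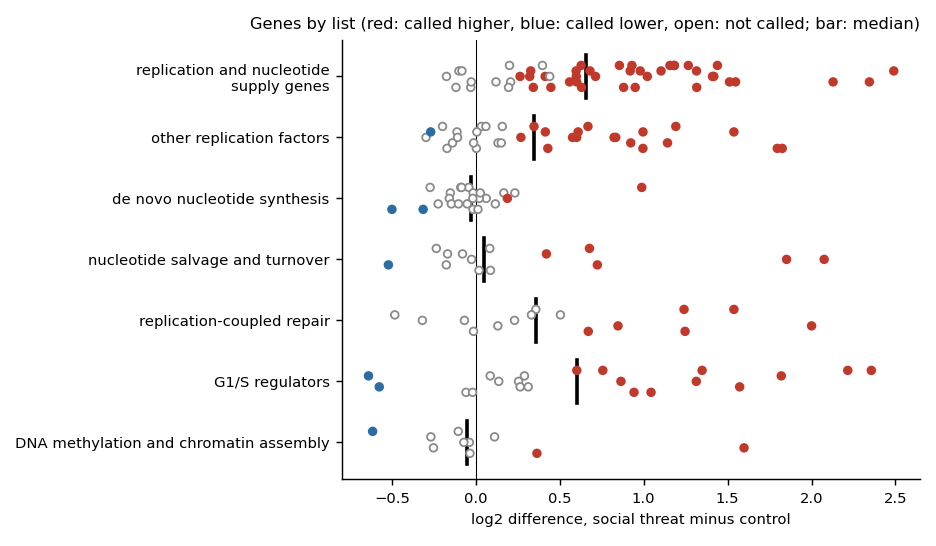
Log2 difference of each gene in the replication group and in 6 further lists of the pathway (red called higher, blue called lower, open not called, black bar the median). The medians are 0.65 for the replication group, 0.35 for other replication factors, 0.60 for G1/S regulators and -0.03 for de novo nucleotide synthesis.

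Markers of cell types were read in the same pools. Their counts stand beside 9.4% of all genes called higher and 11.7% called lower. Of 9 measured myeloid markers, 5 rose and 2 fell, with a log2 summed signal of 16.20 to 16.22 in control and 16.33 to 16.35 under social threat. Itgam, the antigen of the isolation, stood at 10.47 and 11.01 in control and at 11.64 and 11.59 under social threat. It rose by 0.88 (SE 0.13, adjusted p = 0.0015). The 2 that fell were Csf1r (-0.26, adjusted p = 0.000144) and Csf3r (-0.14, adjusted p = 0.00629). Csf3r was chosen after its values were seen. All 8 measured markers of neutrophil precursors rose, with a median of 3.76, among them Mpo by 4.85 (SE 0.09) and Ctsg by 4.81 (SE 0.10), both enzymes of azurophilic granules. On the same scale their summed signal was 14.57 to 14.60 in control and 15.55 under social threat. That sum mostly reads Ltf, Camp and Ngp, the brightest of the 8, which were chosen after their values were seen. They rose by 1.00, 0.68 and 0.54, less than the median of the list. Of 9 erythroid markers 6 rose, with a summed signal of 9.73 to 9.85 in control and 10.55 to 10.58 under social threat. Slc4a1, the red cell anion exchanger, rose by 3.19 (SE 0.09), the largest of them. The 3 not called, chosen after their values were seen, were Gata1 (0.21), Epor (-0.03) and Tfrc (-0.05). Epor and Tfrc had overlapping pools. All 5 platelet markers rose, with a summed signal of 8.96 to 9.04 against 9.85 to 9.88.

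Most lymphoid and all measured dendritic cell markers were lower. B cell markers fell for 5 of 6 genes (summed signal 11.52 to 11.57 in control, 10.46 to 10.52 under social threat), T cell markers for 7 of 7 (10.14 to 10.20 against 9.14 to 9.21) and NK cell markers for 3 of 5 (10.97 to 11.08 against 10.23 to 10.30). Conventional dendritic cell markers fell for 7 of 7 (12.27 to 12.29 against 10.98 to 11.07), plasma cell markers for 2 of 6 (12.08 to 12.09 against 11.98 to 12.01) and stromal markers for 2 of 6 (9.15 to 9.25 against 8.64 to 8.72). Stem and progenitor markers rose for 1 of 7 (14.3%, near the 9.4% of all genes) and fell for 3 (42.9%, beside 11.7%). Their summed signal was 9.46 to 9.54 in control and 8.74 to 8.79 under social threat. Flt3, a cytokine receptor that is also on the dendritic cell list, fell by 1.12. An array gives no zero, so a marker that is absent cannot be told from one that is dim.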

How the data were processed

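CD11b+ splenocyte RNA of 4 pools was measured on 1 array each. The authors deposited log2 values, 1 per probe set and array. RMA is the method listed in the submitters' processing notes, without a version. It subtracts background, equalises the arrays' distributions and combines the probes of a set, so small signals have shrunken differences and no call of presence exists. Array settings and the order of processing are not given in the sources used here, and scanner files were not used here. The control pools correlated at r = 0.9966 over probe sets and the social threat pools at 0.9981, and pools of different groups at 0.9894 to 0.9904. The number of arrays limits the precision.

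Groups and pool numbers came from the sample titles. Of 45037 probe sets, 34945 named exactly 1 gene in the supplied platform annotation, 932 several and 9160 none. Differences, social threat minus control, were fitted by limma 3.58.1 under R 4.3.3 (lmFit, eBayes with a mean-variance trend, residual degrees of freedom 2, prior 7.1), two-sided, with Benjamini-Hochberg adjustment over all probe sets and a threshold of 0.05. SEs and 95% intervals are limma's moderated ones. The labels do not say that pool numbers pair arrays. The fit was also run on simulated data with known changes and independent noise, which bears on the code and not on the calls made here. Summed signals of marker lists are log2 of the sum of 2 to the power of each value. The members and lists were chosen with earlier results of these data known. The rule took up to 5 genes from each list, called genes with the largest differences first, together with Itgam and Rrm2b. Not every gene it took is reported here, and any others are said to be chosen after their values were seen. Promoters came from RefSeq (GRCm38.p6) and were searched on both strands. The alternatives tried were the variance model, a filter on dim probe sets, the mean of a gene's probe sets, renormalization, the pool number as a block and leaving out each pool, where the lone pool is assumed to vary like the other group.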

Additional observations from a re-analysis of the deposited data

How the results depend on the processing

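No member changed direction with a call in any of the 11 alternatives. The count of members that rose was between 26 and 37 when each pool was left out, the count that fell between 0 and 1, and the median difference between 0.62 and 0.74. Over the same 4 settings, called probe sets numbered 1575 to 3782 higher and 1552 to 4939 lower. The lists gave 12 to 18 rises and 0 to 2 falls for other replication factors, 1 to 2 and 1 to 4 for de novo nucleotide synthesis, 5 to 9 and 0 to 1 for repair, and 1 to 3 and 0 to 2 for methylation and chromatin assembly. Without the variance trend, 2533 probe sets were lower, other replication factors had 0 falls and de novo synthesis 1 rise and 1 fall, and the members Mcm2, Gins4, Pola1, Rpa1 and Rpa3 lost their calls. With the mean of a gene's probe sets, other replication factors had 2 falls, repair 1 fall, and methylation and chromatin assembly 1 rise and 2 falls, and Orc1, Rpa2, Fen1 and E2f1 were called higher. The cause was not tested.

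The labels do not say whether same-numbered pools belong together. The deviations of same-numbered arrays from their group means correlated at 0.0519, which cannot settle this with 2 pools per group. With the pool number as a replicate block, 38 members rose, with Fen1 and E2f1 added, and repair and methylation and chromatin assembly had 2 falls each. Over all probe sets that fit called 3616 higher and 4552 lower, against 3194 and 3905 without the block. The size of differences of dim genes such as Ccne2 is limited by background.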
